A study of Sus scrofa with 12 samples.

Results

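The m6A peaks described here are those that the authors' tables annotate to the 3′ untranslated region (3′ UTR) of a porcine mRNA, and they were chosen by that annotation alone. They made up 11621 of the 25346 peaks listed for normoxia (45.8%), 10688 of the 24444 listed for hypoxia (43.7%) and 630 of the 1206 listed as differing between the conditions (52.2%). Over all 3 tables they were 22939 of 50996 entries. They come from primary granulosa cells, which line the ovarian follicle and nurse the oocyte. The donors were sexually mature crossbred sows (Sus scrofa; Duroc × Yorkshire × Landrace), and the cells came from their antral follicles. Normoxia means 21% O2 and hypoxia 1% O2, each applied over 12 h. Both groups grew in DMEM/F-12 with fetal bovine serum and carried no engineered allele. Each condition had 3 biological replicates, each replicate gave an input library of poly(A) RNA and a library precipitated with an m6A antibody (IP), and the 12 libraries share 1 batch label. The labels do not say whether separate sows gave the replicates.

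N6-methyladenosine (m6A) is a methyl group that a complex built around METTL3 and METTL14 places on adenosines of newly made mRNA, and that the demethylases FTO and ALKBH5 can take off. In mammalian mRNA the mark is found most often around the stop codon and in the 3′ UTR, the stretch between the end of the coding sequence and the poly(A) tail that also carries binding sites for microRNAs and for proteins of mRNA decay, storage and transport. Reader proteins of the YTH and IGF2BP families bind methylated sites there and change how long a transcript lasts or how much of it is translated.

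The input libraries served both as the background of the peak calls and as the measure of RNA, so a peak and the RNA of its gene are not independent measurements. FPKM (fragment counts normalised for transcript length and sequencing depth) was listed for 18060 genes and summed to 294929 to 326804 per library, and the depth of each library is unknown. Of 13 granulosa markers 10 had at least 1 FPKM (not AMH, CYP19A1 or STAR), and the list summed to 358 to 559 in normoxia and 194 to 336 in hypoxia. CYP11A1 alone was 246 to 444 and 68.4 to 232 of that, while INHBB went the other way (14.9 to 17.2 and 29.4 to 32.9). All 10 fibroblast and smooth muscle markers had at least 1 FPKM, with sums of 9794 to 11684 and 6371 to 7632, of which ACTA2 alone was 6607 to 8600 and 2876 to 4101, while COL1A1 went the other way (176 to 189 and 248 to 344). Of the other lists, 2 of 3 theca, 2 of 6 leukocyte (CD68 and CD14), 1 of 7 endothelial (PECAM1) and 1 of 2 oocyte markers (GDF9) had at least 1 FPKM, and PTPRC had at most 0.0768. The part of those markers in the results below was not tested. Hypoxia library 3 stood apart, with a median-ratio factor of 0.751 against 0.947 to 1.15 in the other 5.

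The 3′ UTR peaks fell in 8106 genes in normoxia and 7389 in hypoxia, and most of those genes had 1 such peak (70.0% and 69.8%). A normoxia peak covered a median of 481 bases from its first to its last base, introns included, and a hypoxia peak 361. Peaks in the 5′ UTR covered 1054 and 683 bases and exonic peaks 1200 and 542, so the 3′ UTR entries were the shortest of these 3 kinds in both lists. A minority spread further: 719 normoxia peaks (6.19%) and 417 hypoxia peaks (3.90%) spanned more than 10000 bases. There is 1 list per condition and no value per library, so the spans were not tested.

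The 3′ UTR is the last part of an mRNA, so peaks chosen by that annotation lie near gene ends by the choice itself. Their positions are given as a description. In normoxia 2279 peaks (19.6%) and in hypoxia 2126 (19.9%) reached the last annotated base of the gene. Exonic peaks did so in 4.02% and 3.34%, and peaks on exons of non-coding RNA in 19.2% and 18.3%. The 3′ edge of a 3′ UTR peak lay a median of 928 bases before the gene end in normoxia and 899.5 in hypoxia, and 51.6% and 52.4% lay within 1000 bases of it. Gene ends are those the tables give for build Sscrofa11.1. An annotated gene of the other strand lay under 1272 normoxia and 1129 hypoxia peaks (10.9% and 10.6%).

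**Figure D1:**
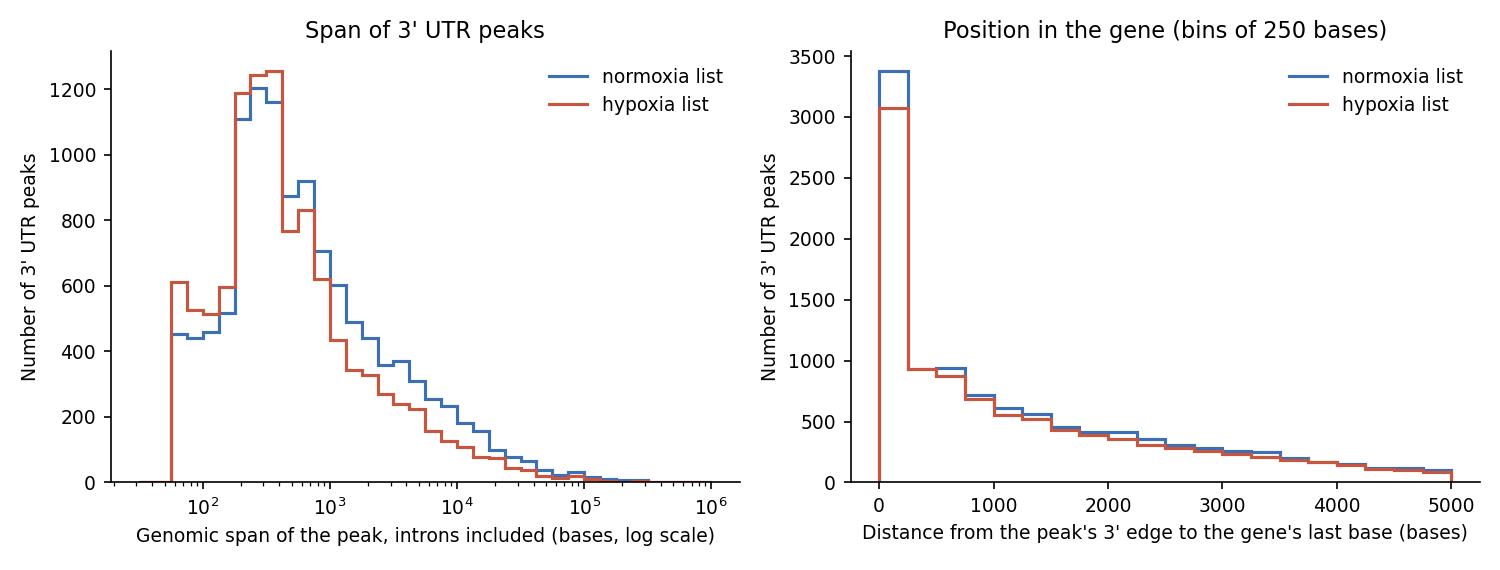
Number of 3′ UTR peaks by genomic span in bases (left, log scale, introns included) and by distance in bases from the 3′ edge of the peak to the last base of the gene (right, bins of 250 bases, distances of 0 to 5000 shown), for the normoxia list (blue) and the hypoxia list (red). The hypoxia outline exceeds the normoxia outline at short spans and falls below it at long ones (medians 361 and 481 bases), while both lists have their highest bin at the gene end.

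Enrichment, the IP signal over input given by the authors for each peak, had a median of 4.45-fold in normoxia and 5.04-fold in hypoxia for 3′ UTR peaks. The authors' adjusted p was under 0.05 for 10330 normoxia peaks (88.9%, against 86.9% of all normoxia peaks) and 9359 hypoxia peaks (87.6%, against 86.8%). Part of the enrichments were repeated values. In normoxia 374 peaks carried the same 7.40-fold and in hypoxia 389 carried 7.22-fold, and the 10 most frequent values took in 17.3% and 21.3% of the 3′ UTR peaks. Peaks at the most frequent value lay in genes of low RNA, with a median of 0.622 FPKM in normoxia against 4.76 for the rest, and 53.7% of them were shared with the hypoxia list.

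The highest enrichment in both lists belonged to ORMDL3, a regulator of sphingolipid synthesis. Its single peak had the same ends in both (chromosome 12, 22416719 to 22417347, 629 bases) and was 579-fold enriched in normoxia and 965-fold in hypoxia. PSMD4, a ubiquitin receptor of the proteasome, had a 269-base peak at the gene end (chromosome 4, 97994065 to 97994333) with 429-fold and 164-fold enrichment. For the F-box protein gene FBXL19 the 1649-base peak at the gene end (chromosome 3, 17497488 to 17499136) was 201-fold and 186-fold enriched. The 5 highest of each list also include the signalling adaptor GAB2 (208-fold and 224-fold), the RNA-binding protein gene TAF15 (182-fold and 205-fold), the adhesion molecule CADM4 (57.2-fold and 319-fold) and the disulfide isomerase PDIA3 (125-fold and 217-fold). None of these 7 genes has a 3′ UTR entry in the authors' deposited table of differential peaks. Few genes do (3.31% of all 18060, and 5.48% of the 10196 tested for RNA below), so their absence is not read as a result.

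Some genes carried many separate 3′ UTR entries. ZDHHC3, which codes for a palmitoyltransferase, had the most, with 12 peaks in normoxia and 11 in hypoxia, lying 929 to 15186 bases before the gene end. The trafficking gene TRAPPC12 had 5 peaks in normoxia and 10 in hypoxia on chromosome 3. Its normoxia peak at the gene end (131307208 to 131308886, 1679 bases, 17.5-fold) held 5 separate hypoxia peaks of 61 to 451 bases. A second normoxia peak (131309486 to 131310685, 1200 bases, 4.49-fold) held 3 hypoxia peaks. The sorting nexin gene SNX29 had 7 and 8 peaks and the ARF regulator GIT2 had 7 in each list. GMPPB, an enzyme of GDP-mannose synthesis, was listed 11 and 7 times, but several entries overlap each other, and they merge into 5 and 3 distinct regions. Such repeats were rare: 102 of the 11621 normoxia entries (0.878%) and 95 of the 10688 hypoxia entries (0.889%) overlapped another 3′ UTR entry of their list, and merging gave 11561 and 10632 regions.

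A 3′ UTR peak was counted as shared when it overlapped a 3′ UTR peak of the other list on the same strand by at least 1 base. In that sense 8502 normoxia peaks (73.2%) and 8906 hypoxia peaks (83.3%) were shared. Peaks of the 5′ UTR were shared at 61.0% and 70.0% and exonic peaks at 63.1% and 67.2%. Where the overlap had to cover at least 50% of both spans, the shares for 3′ UTR peaks were 46.4% and 50.4%. Of the 7039 pairs in which 1 normoxia peak met 1 hypoxia peak and no other, the hypoxia peak was shorter in 62.1%, equal in 10.7% and longer in 27.3%, with a median length ratio of 0.909. Both members ended at the same 3′ base in 34.1% of pairs and began at the same 5′ base in 19.7%. Splitting was also uneven: 787 normoxia peaks held at least 2 hypoxia peaks, and 456 hypoxia peaks held at least 2 normoxia peaks.

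The 3119 normoxia peaks and 1782 hypoxia peaks that were not shared were shorter than shared ones, with medians of 240 and 210 bases against 598 and 411.5. Fewer of them had the authors' adjusted p under 0.05 (74.0% and 59.0%, against 94.4% and 93.3% of shared peaks). They lay in genes with less RNA, at a median of 3.19 FPKM in normoxia and 1.66 in hypoxia, against 5.14 and 4.07 for shared peaks. Being absent from the other list did not mean that the gene was without m6A there. Of the 3119 normoxia peaks, 431 overlapped a hypoxia peak of another annotation, 1306 had another 3′ UTR peak in the same gene, 576 lay in genes with peaks of other annotations and 806 in genes with no hypoxia peak. For the 1782 hypoxia peaks the same counts were 210, 831, 267 and 474.

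The share of peaks found in both lists was higher in genes with more RNA, taken as the mean input FPKM over both conditions. In genes under 0.1 FPKM 49.5% of the normoxia and 50.4% of the hypoxia peaks were shared, between 1 and 10 FPKM 73.1% and 86.1%, and at 100 FPKM or more 80.8% and 90.1%. Enrichment ran the other way, from a median of 8.46-fold and 8.25-fold under 0.1 FPKM to 2.42-fold and 2.80-fold at 100 FPKM or more. Under 0.1 FPKM 58.9% and 51.4% of the peaks had the authors' adjusted p under 0.05, against 96.8% and 96.4% at 100 FPKM or more. Between 0.1 and 1 FPKM the median enrichments, 7.40-fold and 7.22-fold, equalled the most frequent repeated values given above. These are values across peaks of the same pair of lists, given as a description.

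**Figure D2:**
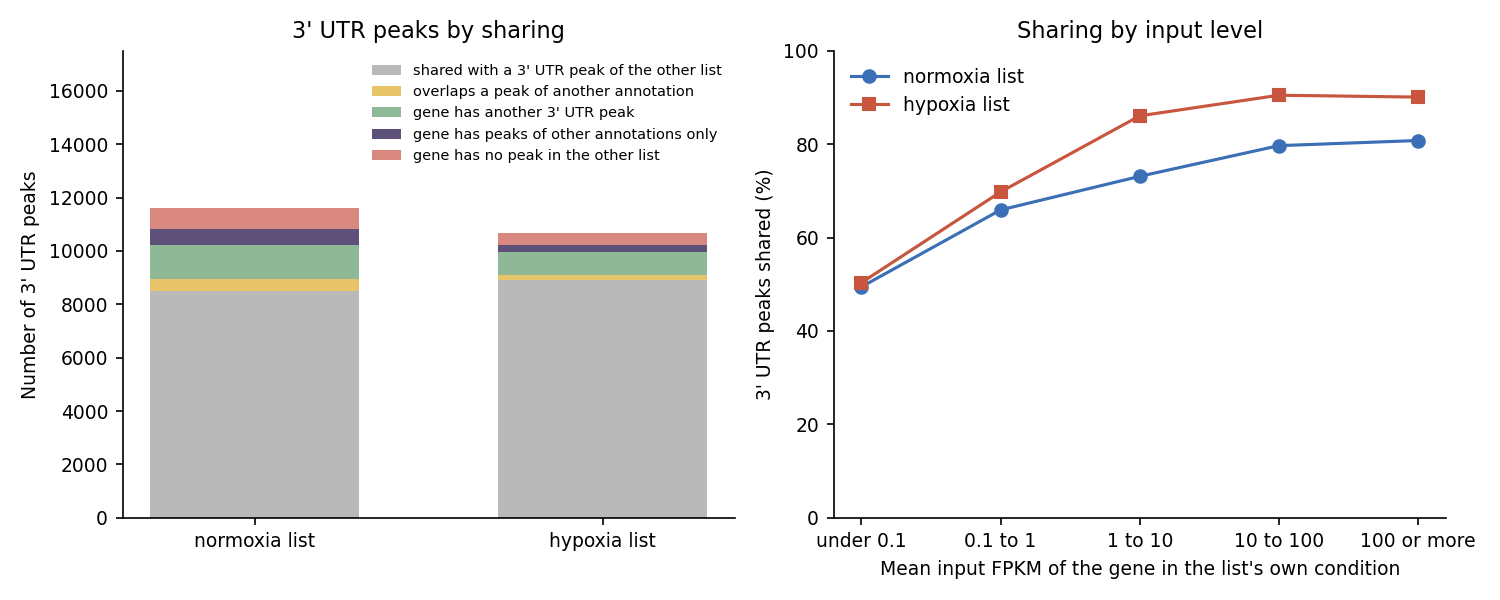
Left, number of 3′ UTR peaks in the normoxia and hypoxia lists, stacked by whether a 3′ UTR peak of the other list overlaps and, if not, by what the other list holds for the gene. Right, percentage of 3′ UTR peaks shared, by the gene's mean input FPKM over both conditions (5 classes), although the axis title names the list's own condition. Shared peaks fill 73.2% of the normoxia and 83.3% of the hypoxia bar, and the shared percentage is lowest under 0.1 FPKM in both lists.

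Among the most abundant mRNAs with a 3′ UTR peak in 1 list alone, the unshared peaks were mostly short and weak. In normoxia these were MYL9, the myosin regulatory light chain (121 bases, 1.37-fold), the ribosomal protein genes RPL8 (91 bases, 1.65-fold) and RPL6 (1102 bases, 2.30-fold), the prolyl isomerase PPIB (207 bases, 1.33-fold) and the tropomyosin TPM4 (15672 bases, 4.05-fold). In hypoxia they were P4HB, a disulfide isomerase that is also a subunit of collagen prolyl hydroxylase (chromosome 12, 1129325 to 1130594, 1270 bases, 2.26-fold), the tubulin gene TUBA1B (60 bases, 1.25-fold), RPL27A (120 bases, 6.70-fold), the integrin ITGB1 (60 bases, 1.39-fold) and the membrane protein gene ITM2B (90 bases, 1.27-fold). Of these 10 genes, ITM2B is the one with a 3′ UTR entry in the authors' deposited table of differential peaks, higher in hypoxia by 0.27 on the log2 scale (adjusted p = 0.00011). Such an entry exists for 3.31% of all 18060 genes and 5.48% of those tested for RNA below.

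Between the conditions, 3′ UTR peaks were listed as lower in hypoxia more often than as higher. For each differential peak, the authors' deposited table has a log2 difference of its m6A signal, hypoxia minus normoxia, and lists peaks with an unadjusted p under 0.05. The authors' deposited table holds 206 higher 3′ UTR peaks (32.7%, against 43.0% of all 1206 listed peaks) and 424 lower ones (67.3%, against 57.0%). The authors' deposited table lists 313 higher and 263 lower peaks in the other regions (45.7% lower), of which the 5′ UTR had 127 and 99 and exons 169 and 148. With the authors' adjusted p under 0.05 their deposited table keeps 222 3′ UTR peaks (35.2%, against 35.3% of all listed peaks), 85 higher and 137 lower, and 139 higher and 65 lower in other regions. At an absolute log2 difference of at least 1 the authors' deposited table has 36 higher and 34 lower 3′ UTR peaks, so lower ones were not in excess there. In the other regions it has 62 higher and 43 lower at that cut, a smaller share of lower peaks than in the 3′ UTR. The median difference in that deposited table of the authors was 0.47 for higher and -0.49 for lower 3′ UTR peaks. Peaks are no replicates, and the table gives no value per library, so the difference between regions was not tested.

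**Figure D3:**
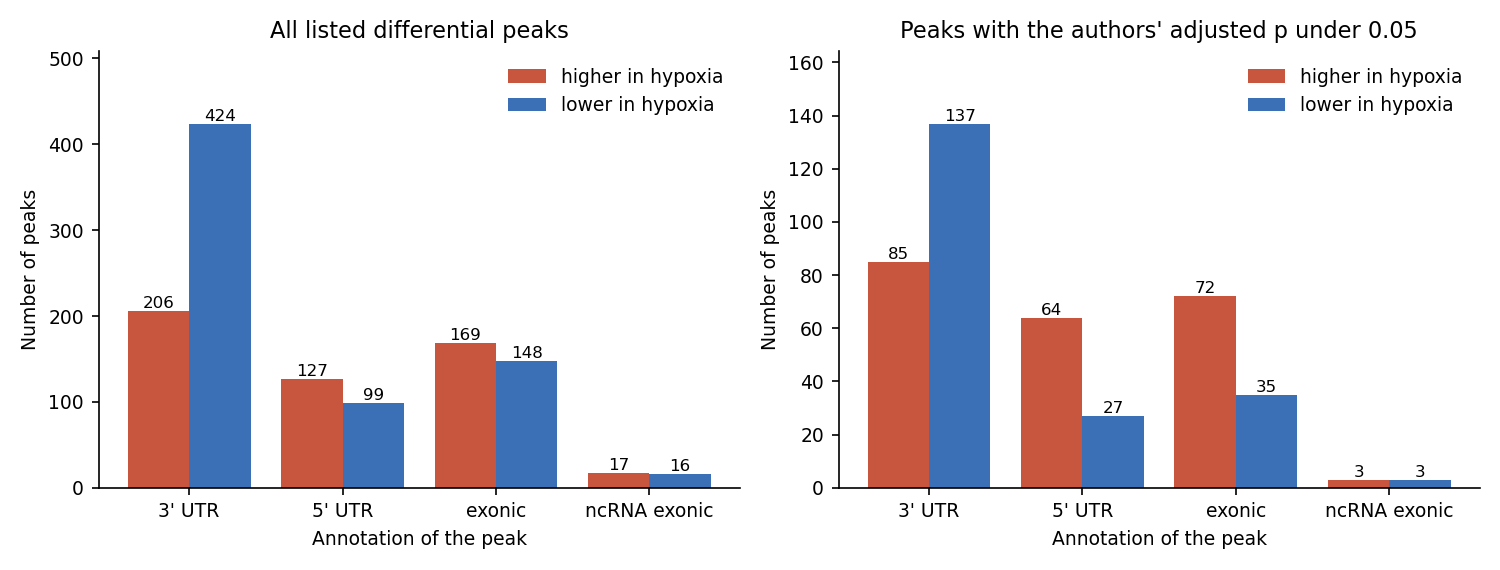
Number of differential peaks higher (red) and lower (blue) in hypoxia in the authors' deposited table, by the annotation of the peak, for all listed peaks (left) and for those with the authors' adjusted p under 0.05 (right). The 3′ UTR has more lower than higher peaks in both panels (424 against 206, and 137 against 85), and the 5′ UTR and exonic classes have more higher ones.

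The listed differences mostly concerned peaks present in both conditions. Most 3′ UTR peaks were present in both (73.2% of those of normoxia and 83.3% of those of hypoxia), so this is not read as a trait of the differential ones. Of the 206 higher peaks in the authors' deposited table, a total of 170 overlapped 3′ UTR peaks of both lists, 35 of the hypoxia list alone and 1 of the normoxia list alone. Of the 424 lower peaks in the authors' deposited table, a total of 365 overlapped both lists, 58 only the normoxia list and 1 only the hypoxia list. Where a differential peak met exactly 1 peak of each list, the direction in the authors' deposited table and the change of list enrichment mostly had the same sign: 138 of 152 higher peaks had the higher enrichment in hypoxia, and 259 of 306 lower peaks the lower one. The 3 sets come from the same libraries, so this says how the tables fit together and adds no evidence on the difference. Exceptions include TRIR and SOCS2 below.

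Of the 8 higher 3′ UTR peaks with the smallest adjusted p, the first belonged to EEF2, a translation elongation factor. Its peak over the gene end (chromosome 2, 74755287 to 74756680) was 3.94-fold enriched in normoxia and 4.98-fold in hypoxia, a small log2 difference of 0.18 in the authors' deposited table (adjusted p = 6.31e-48). PDIA4, a disulfide isomerase of the endoplasmic reticulum, had 2 normoxia peaks (3.79-fold and 6.42-fold) that were 1 in hypoxia (6.99-fold), and the authors' deposited table gives 0.24 (adjusted p = 1.58e-34; chromosome 9, 109278234 to 109280247). CPM, which codes for a membrane carboxypeptidase, had the largest difference of those not overlapped by a peak on the other strand, 0.89 in the authors' deposited table (adjusted p = 2e-09; chromosome 5, 33169275 to 33173701), although its enrichment was 6.96-fold and 6.95-fold in the lists. The hypoxia peak of CPM spanned 22003 bases and the normoxia peak 1192.

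The other 5 of the 8 higher peaks had a complication of position or sign. For PDAP1, whose product binds a platelet-derived growth factor chain, the authors' deposited table gives 0.26 (adjusted p = 1.7e-09) over a span of 10768 bases that overlaps a normoxia peak (9.52-fold) and no hypoxia 3′ UTR peak. For TRIR, a ribonuclease gene, it is 0.29 in the authors' deposited table (adjusted p = 1.78e-09), while the enrichment was 7.14-fold in normoxia and 6.49-fold in hypoxia. CRB2, a polarity protein gene, and DENND1A, a regulator of RAB GTPases, end over each other on opposite strands of chromosome 1. The authors' deposited table gives 1.14 for CRB2 (264300755 to 264301503, adjusted p = 7.76e-08) and 1.57 for DENND1A (264300994 to 264301502, adjusted p = 2.14e-10). The ubiquitin ligase gene STUB1, at 0.42 in the authors' deposited table (adjusted p = 2.4e-08), overlaps a peak of JMJD8 on the other strand at 0.32. The values of CRB2, DENND1A and STUB1 cannot be assigned to 1 strand from these tables.

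The 8 lower 3′ UTR peaks with the smallest adjusted p included genes of glycogen and fatty acid metabolism. CPT1A, which admits long-chain fatty acids to mitochondria, had a peak (chromosome 2, 4289846 to 4292895) of 4.13-fold enrichment in normoxia and 2.70-fold in hypoxia, -0.52 in the authors' deposited table (adjusted p = 1.29e-05). GYS1, glycogen synthase, went from 4.02-fold to 3.83-fold at chromosome 6, 54235022 to 54235531, and stands at -0.39 in the authors' deposited table (adjusted p = 8.51e-06). LRRC8D, a subunit of the volume-regulated anion channel, had 7.37-fold and 4.89-fold enrichment (chromosome 4, 126766840 to 126768427), -0.71 in the authors' deposited table (adjusted p = 4.37e-06).

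The cytokine receptor gene IL10RA had 11.3-fold and 7.27-fold enrichment (chromosome 9, 45322039 to 45323380), -0.33 in the authors' deposited table (adjusted p = 1.12e-07). The tight junction gene CLDN6 had a peak at the gene end (chromosome 3, 39172240 to 39172628) that went from 2.54-fold to 1.69-fold and from 389 to 300 bases, -0.49 in the authors' deposited table (adjusted p = 3.16e-09). SCAND1, a zinc finger partner gene, had 4.23-fold and 2.18-fold enrichment and -0.36 in the authors' deposited table (adjusted p = 1.32e-06). ABR and the mitochondrial import gene TIMM22 are neighbours on opposite strands of chromosome 12, and their peaks do not overlap. In the authors' deposited table ABR stands at -0.37 (46894911 to 46895509, adjusted p = 1.41e-08) and TIMM22 at -1.03 (46897616 to 46898095, adjusted p = 1.62e-06). The TIMM22 peak shrank from 510 to 91 bases and from 4.42-fold to 1.71-fold, the largest of these 8 differences.

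In 57 genes the authors' deposited table lists a differential peak in the 3′ UTR and another in a different part of the same gene. The direction was the same in 33 of them (21 lower and 12 higher in both parts), and DPF3 has 3′ UTR peaks in both directions. In 21 genes of the authors' deposited table the 3′ UTR was lower and the other part higher. In 2, GCN1 and TLNRD1, it was the reverse. Over all listed peaks 67.3% of those in the 3′ UTR were lower and 54.3% of those in other regions higher. The 21 are to be read against these shares, were not tested and are not read as a result. In 10 genes both parts had the authors' adjusted p under 0.05 in the deposited table. In 6 of these the 3′ UTR was lower and the other part higher. At that threshold 61.7% of all listed 3′ UTR peaks were lower, and in other regions 139 peaks were higher and 65 lower. The genes named from here to the end of the paragraph that follows were chosen after their values were seen.

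AFAP1, an actin filament binding protein gene, has in the authors' deposited table a 3′ UTR peak at -1.09 (chromosome 8, 3198994 to 3199384, adjusted p = 0.000501) and an exonic peak at 0.60 (3182693 to 3186122, adjusted p = 0.0195). MAP4, a microtubule-associated protein gene, has a 211-base 3′ UTR peak at -0.43 in the authors' deposited table (chromosome 13, 30634610 to 30634820, adjusted p = 0.000288) and peaks at 0.15 in exons and 0.34 in the 5′ UTR. For the polymerase III subunit POLR3D the authors' deposited table gives -0.38 in the 3′ UTR and 0.46 in the 5′ UTR (adjusted p = 0.0389 and 1.15e-07). DDX23, a helicase of the spliceosome, has -0.43 and 0.24 in the authors' deposited table (3′ UTR and exonic), and SRP68, of the signal recognition particle, -0.37 and 0.32. PPP2R5D, a phosphatase subunit at -0.27 and 0.57 (3′ UTR and 5′ UTR) in the authors' deposited table, overlaps MEA1 on the other strand, which is also at -0.27. Such opposite values within 1 gene stand beside RNA that did not pass the test for AFAP1 (20.9 ± 2.28 FPKM at 21% O2 and 18.95 ± 3.50 at 1% O2, mean ± SD, n = 3 each, limma adjusted p = 0.613), SRP68 (17.0 ± 0.186 and 15.5 ± 1.49, limma adjusted p = 0.542) and MAP4 (69.8 ± 4.09 and 54.8 ± 2.19, limma adjusted p = 0.0881). RNA of POLR3D (11.4 ± 0.505 and 5.34 ± 0.199, limma adjusted p = 0.00303) and DDX23 (23.9 ± 0.551 and 13.6 ± 1.2, limma adjusted p = 0.007) was lower in hypoxia.

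**Figure D4:**
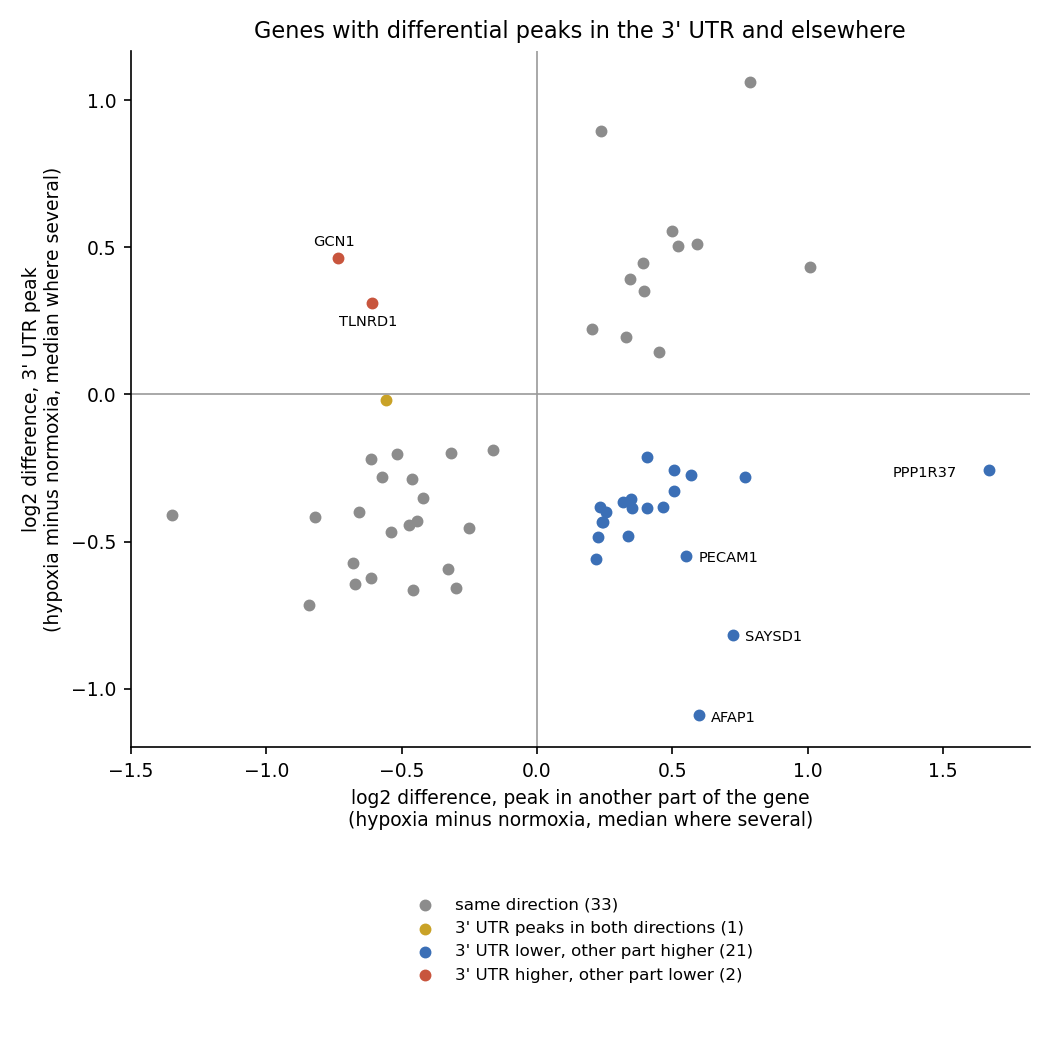
Log2 difference of the 3′ UTR peak (vertical) against that of the peak in another part of the same gene (horizontal), hypoxia minus normoxia, from the authors' deposited table, 1 point per gene (57 genes, medians where a part had several peaks). Of the 23 genes with opposite directions, 21 lie at the lower right (3′ UTR lower, other part higher) and 2 at the upper left. Over all listed peaks 67.3% of those in the 3′ UTR were lower and 54.3% of the others higher, so the 21 are not read as a result.

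Some peaks lie over each other on opposite strands. A peak on the other strand overlapped 886 normoxia 3′ UTR peaks (7.62%), 723 hypoxia ones (6.76%) and 35 of the 630 differential ones (5.56%). Counting each pair once, the enrichments of both partners differed by a median of 0.21 on the log2 scale in both lists (566 normoxia and 467 hypoxia pairs). Where the spans coincided over at least 90% of their length, the median gap was 0.024 in normoxia (81 pairs) and 0.019 in hypoxia (88 pairs). In the authors' deposited table of differential peaks the median gap was 0.098 over 20 pairs and 0.011 over the 6 that coincided, and 19 of the 20 pairs had the same sign. The exception there is AFG3L2 at 0.21 against TUBB6 at -0.36, and GGA3 and NUP85 also stand apart in the authors' deposited table, at -0.25 and -0.63. SCTR and its partner stand at -0.74 and -0.73 in the authors' deposited table, and XPC and TMEM43 both at 0.39. The library preparation marked strand per the labels, but no source says whether counting used it, so such values cannot be assigned to 1 gene.

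RNA was compared between the 3 hypoxia and the 3 normoxia input libraries on log2(FPKM + 1) with limma, over the 10196 genes that reached 1 FPKM in 3 or more libraries. Of all tested genes 5.4% were higher and 21.1% lower in hypoxia at an adjusted p under 0.05, and in these bulk samples fewer cells of a type and less RNA per cell cannot be told apart. The median of all tested genes was -0.26, and a median-ratio factor per library brought it to -0.02, so scaled counts are given beside the main ones. The p-values measure the spread between these replicates.

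Genes with a 3′ UTR peak in both lists stood close to that background: of 5502 tested, 287 were higher (5.22%) and 1251 lower (22.7%), or 6.63% and 8.52% with scaling, where all genes had 6.64% and 8.07%. Genes with a 3′ UTR peak in the normoxia list alone had less RNA (median 2.78 FPKM in normoxia, against 5.10 for both lists), and of 1033 tested 25 were higher (2.42%) and 175 lower (16.9%), or 3.29% and 7.74% with scaling. Genes with one in the hypoxia list alone had the least (0.624 FPKM in normoxia and 0.884 in hypoxia), and of 358 tested 49 were higher (13.7%) and 52 lower (14.5%), or 13.7% and 5.87% with scaling. Of these 358 genes 26 met the FPKM minimum through hypoxia libraries alone and had to differ. Without the minimum, 16.1% of 756 hypoxia-alone genes were higher and 7.54% lower, against 4.29% and 11.6% of all genes. Read from the side of RNA, 60.98% of the 551 genes with higher RNA had a hypoxia 3′ UTR peak and 56.6% a normoxia one, while of the 2148 with lower RNA 60.7% and 66.4% had them. Of all tested genes 57.5% and 64.1% did. In the authors' deposited expression comparison (q under 0.05, no filter) 18.1% of the hypoxia-alone genes were higher and 4.89% lower, against 6.84% and 6.88% of all genes.

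These counts moved with single libraries, as did those over all genes. Without normoxia 1, 2 or 3 or hypoxia 1, 2 or 3, in that order, the genes with a peak in both lists had 167, 156, 170, 131, 248 and 555 higher calls and 617, 408, 504, 573, 1277 and 1775 lower ones. The normoxia-alone genes had 15, 13, 17, 15, 26 and 102 higher and 77, 53, 63, 80, 240 and 278 lower. The hypoxia-alone genes had 41, 36, 39, 12, 23 and 36 higher and 30, 19, 24, 24, 60 and 78 lower. Each of these fits again asked for 1 FPKM in 3 or more of the libraries left. Genes that reached it in hypoxia libraries alone thus dropped out without a hypoxia library. Of the 358 hypoxia-alone genes 328, 324 and 328 were then tested, so part of the fall from 49 higher calls was set by the minimum. In the same order, 3.49%, 3.28%, 3.50%, 2.36%, 4.48% and 9.93% of all tested genes were higher and 10.4%, 6.91%, 8.76%, 9.83%, 23.1% and 31.6% lower.

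Genes whose 3′ UTR peak was listed as lower in the authors' deposited table had lower RNA more often than tested genes at large. Of 375 tested, 161 were lower (42.9%, against 21.1% of all) and 15 higher (4.00%, against 5.4%). Of 179 tested genes with a peak listed as higher, 42 had lower RNA (23.5%) and 25 higher (13.97%). With scaling the first group had 61 lower and 20 higher and the second 10 lower and 26 higher, where all genes had 8.07% lower and 6.64% higher. The 61 are 16.3% of the first group and the 10 are 5.59% of the second. Leaving out normoxia 1, 2 or 3 or hypoxia 1, 2 or 3 gave 105, 73, 85, 89, 146 and 206 lower-RNA genes in the first group (28.3%, 19.6%, 22.9%, 23.9%, 39.2% and 55.2%, to be read against the shares of all genes just given), with 11, 10, 10, 7, 12 and 20 higher ones. In the second group it gave 23, 16, 17, 19, 36 and 57 lower and 19, 17, 17, 16, 22 and 30 higher. Peak values and RNA share the input libraries, so the pairing of directions is given as counts and is no independent result.

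Among the genes named above, peak and RNA ran together in some and apart in others. CPT1A had 19.1, 18.7 and 21.0 FPKM in the normoxia libraries and 4.03, 4.86 and 3.68 in hypoxia, with no overlap. Its RNA fell by 1.99 on the log2 scale (SE 0.153, limma adjusted p = 0.000408), alongside the lower peak. LRRC8D had 10.5, 10.9 and 10.9 FPKM in normoxia and 2.43, 2.63 and 2.06 in hypoxia, and fell by 1.81 (SE 0.149, limma adjusted p = 0.000514).

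In GYS1 and IL10RA the peak was listed as lower while the RNA rose. GYS1 had 32.2, 35.5 and 37.3 FPKM in normoxia and 99.3, 95.2 and 146 in hypoxia, where every library exceeded every normoxia one, a log2 difference of 1.64 (SE 0.192, limma adjusted p = 0.00171). IL10RA went from 13.2, 16.3 and 19.3 FPKM to 43.6, 43.6 and 45.3, again without overlap (1.40, SE 0.166, limma adjusted p = 0.00162). For PDAP1 the peak was listed as higher and the RNA fell, from 98.7, 111 and 87.9 FPKM to 54.0, 54.4 and 39.3 (-1.01, SE 0.179, limma adjusted p = 0.00732).

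CPM rose along with its peak, from 3.79, 2.99 and 4.06 FPKM to 8.53, 11.3 and 8.02 (a log2 difference of 1.15, SE 0.186, limma adjusted p = 0.00522). The 6 genes from CPT1A to CPM kept their calls with each library left out and with scaling. EEF2 had 959, 949 and 985 FPKM in normoxia and 1540, 1270 and 1430 in hypoxia (0.55, SE 0.127, limma adjusted p = 0.0191), and this call was lost without normoxia 1, 2 or 3 or hypoxia 1 (limma adjusted p = 0.0848, 0.0976, 0.0757 and 0.0843). CRB2 had 0.747, 0.697 and 0.511 FPKM in normoxia and 4.55, 4.72 and 3.55 in hypoxia, and so met the FPKM minimum through the hypoxia libraries alone, which makes its filtered test no support. In the fit without that minimum CRB2 differed by 1.67 on the log2(FPKM + 1) scale (limma adjusted p = 0.0027). The added 1 makes this difference smaller at low values, and the authors' deposited expression comparison gives CRB2 a log2 difference of 2.71.

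DENND1A, which shares its stretch with CRB2, had 7.74, 8.74 and 9.68 FPKM in normoxia and 4.85, 5.21 and 7.31 in hypoxia. The groups did not overlap, but the difference of -0.53 did not pass (SE 0.187, limma adjusted p = 0.078), except without hypoxia 3 (limma adjusted p = 0.00398). CLDN6, with the lower peak of smallest adjusted p, had 34.1, 39.4 and 44.5 FPKM and 42.7, 36 and 51.7, which overlap (0.13, SE 0.181, limma adjusted p = 0.647). RNA of PDIA4, TRIR, STUB1, ABR, SCAND1 and TIMM22 did not pass the test either (limma adjusted p between 0.0515 and 0.244), although ABR passed with scaling (limma adjusted p = 0.0475). Without hypoxia 3, STUB1, SCAND1, TRIR and ABR passed (limma adjusted p = 0.00555, 0.00702, 0.0243 and 0.0485).

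Of the abundant mRNAs with a peak in 1 list alone, P4HB had 386, 465 and 520 FPKM in normoxia and 823, 707 and 1050 in hypoxia, without overlap. The log2 difference was 0.90 (SE 0.192, limma adjusted p = 0.0144), a call lost without normoxia 1 or 2 or hypoxia 1 (limma adjusted p = 0.0657, 0.0657 and 0.0558). MYL9 had 1320, 1530 and 1300 FPKM and 913, 757 and 907, all lower in hypoxia (-0.69, SE 0.140, limma adjusted p = 0.0114), a call lost without normoxia 2 (limma adjusted p = 0.0697) and with scaling (limma adjusted p = 0.312). The other 8 of these genes did not pass, except ITGB1 without hypoxia 3 (limma adjusted p = 0.00738). Of the genes with the highest enrichment, PSMD4 fell from 83.9, 77.5 and 86.6 FPKM to 45.3, 43.5 and 37.4 (-0.96, SE 0.138, limma adjusted p = 0.00339), and ORMDL3, GAB2, FBXL19, TAF15, CADM4 and PDIA3 did not pass, except CADM4 without hypoxia 3 (limma adjusted p = 0.023).

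**Figure D5:**
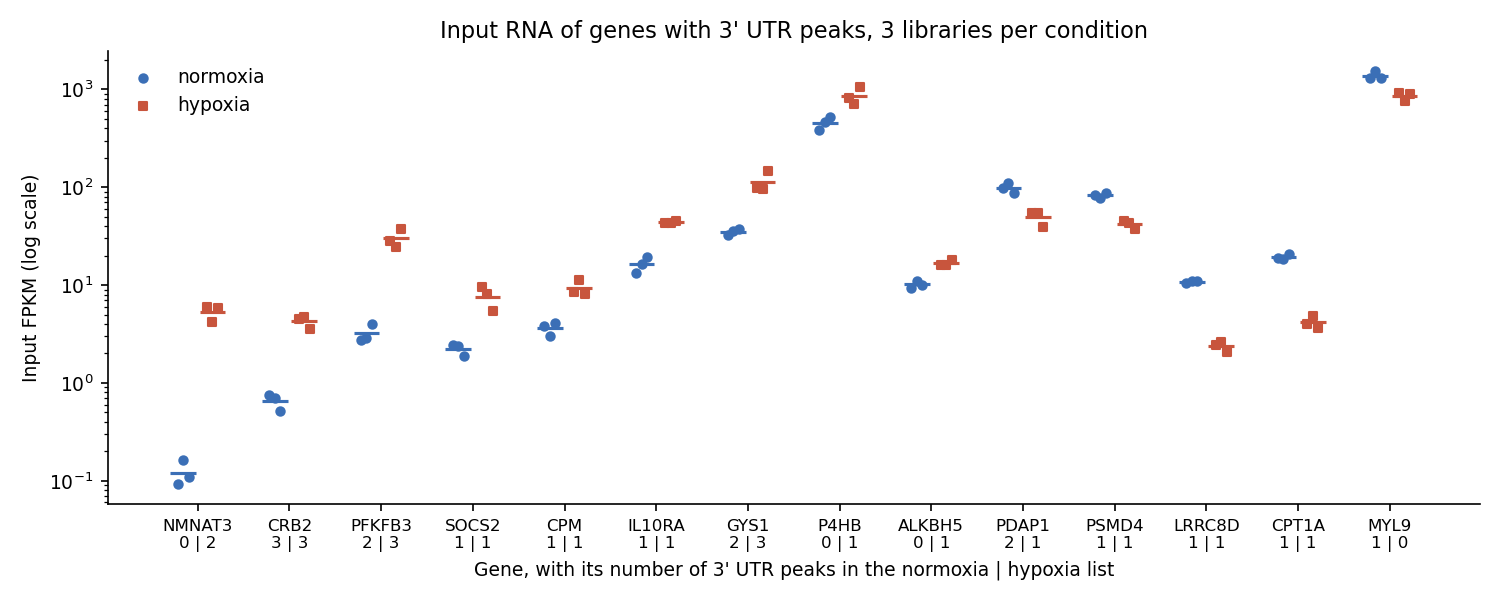
Input FPKM (log scale) of 14 genes with 3′ UTR peaks in the 3 normoxia (blue circles) and 3 hypoxia (red squares) libraries, with the mean of each group as a line, and below each symbol the number of 3′ UTR peaks in the normoxia and hypoxia lists. The 14 are a choice among the named genes, so their lack of overlap is no result about genes with 3′ UTR peaks. The groups do not overlap for any of the 14 genes, and NMNAT3 has the widest gap. They do overlap for other named genes, such as CLDN6, GATA4, HES1 and PDIA3.

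Among the gene lists, that of short-lived transcription factors and immediate early genes carried 3′ UTR peaks most often. They were in 32 of 37 listed genes in each condition (86.5%), against 44.6% of all 18060 genes in normoxia and 40.6% in hypoxia. Granulosa identity genes had them in 23 and 21 of 29 (79.3% and 72.4%) and extracellular matrix genes in 22 and 21 of 29 (75.9% and 72.4%). For HIF-responsive genes outside glycolysis it was 29 and 28 of 40 (72.5% and 70.0%). Of the 10196 tested genes 64.1% and 57.5% had a 3′ UTR peak. That is the closer background for these lists, in which, in order, 30 of 37, 25 of 29, 25 of 29 and all 40 genes were tested. Steroidogenic genes had 8 of 16 in both. Glycolytic genes, with 9 and 7 of 20 (45.0% and 35.0%), lay near the shares of all genes. All 20 were tested, however, and the glycolytic shares were below the 64.1% and 57.5% of tested genes. All 20 listed glycolytic genes had higher RNA in hypoxia (19 with scaling), and PFKFB3 is the 1 with a differential 3′ UTR peak in the authors' deposited table. Of the 40 HIF-responsive genes 24 rose and 3 fell (26 and 2 with scaling), against 5.4% and 21.1% of all tested genes. The authors' deposited table has 0 differential 3′ UTR peaks for these 40 genes, all of which were tested. It has one for 3.31% of all 18060 genes and 5.48% of tested genes, so 0 of 40 is not read as a result.

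The counts of the remaining lists are to be read against the same 64.1% and 57.5% of tested genes. Of 11 writers 8 had a 3′ UTR peak in normoxia and 6 in hypoxia (72.7% and 54.5%), and of 12 readers 6 and 7 (50.0% and 58.3%). Deadenylation and decay genes had 19 of 29 in each condition (65.5%) and 3′ end processing genes 10 and 12 of 17 (58.8% and 70.6%). For 3′ UTR binding proteins it was 18 of 25 in each (72.0%), and for NAD+ enzymes 5 and 6 of 13 (38.5% and 46.2%). Only 7 of the 13 NAD+ enzymes were tested, so the shares of all 18060 genes (44.6% and 40.6%) bear on that list as well. Across the 13 lists the authors' deposited table has a differential 3′ UTR peak in 11 of 280 genes, 6 with a higher and 5 with a lower peak. That is 3.93%, against 3.31% of all genes and 5.48% of tested genes. These lists were chosen with results of these data known.

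In the decay machinery, UPF1, the helicase of nonsense-mediated decay, had 2 peaks in each list whose enrichments went in opposite directions. The first had 5-fold in normoxia and 3.11-fold in hypoxia. The second UPF1 peak went from 1.74-fold and 240 bases to 2.94-fold and 891 bases (chromosome 2, 58976606 to 58977526), 0.64 in the authors' deposited table (adjusted p = 0.00661). UPF1 RNA was 19.2, 22.7 and 22.9 FPKM in normoxia and 12.8, 14.3 and 13.9 in hypoxia (-0.62, SE 0.143, limma adjusted p = 0.0184), a call lost with scaling (limma adjusted p = 0.322) and without normoxia 2, normoxia 3 or hypoxia 1 (limma adjusted p = 0.102, 0.0954 and 0.0896). The decapping factor EDC3 (-0.35 in the authors' deposited table, adjusted p = 0.0759) and SYMPK, the scaffold of 3′ end processing (-0.62 in the authors' deposited table, adjusted p = 0.258, over 24274 bases), did not reach the authors' adjusted p of 0.05.

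Proteins that bind 3′ UTRs had 2 lower entries, both far from the threshold: TIA1 at -1.74 and CPEB4 at -3.04 in the authors' deposited table (adjusted p = 0.305 and 0.275). CPEB4 had 0.975, 0.822 and 0.595 FPKM in normoxia and 0.674, 1.28 and 0.236 in hypoxia, too little for the RNA test, with hypoxia library 3 lowest. TIA1 had 5.14, 5.23 and 3.85 FPKM and 3.44, 6.4 and 1.31, again lowest in hypoxia library 3 (limma adjusted p = 0.487). For the ovarian transcription factor GATA4, with 3 peaks in each list, the authors' deposited table has 2 at -0.23 and -0.25 that missed an adjusted p of 0.05 (0.0646 and 0.0537). The third GATA4 peak is not in the authors' deposited table and had 1.87-fold enrichment in normoxia and 2.61-fold in hypoxia. GATA4 RNA was 14.6, 18.0 and 15.4 FPKM in normoxia and 13.9, 16.1 and 14.8 in hypoxia, which overlap (limma adjusted p = 0.706).

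The higher entries among the lists were HES1, THBS2, PFKFB3, SOCS2, UPF1 and NMNAT3. HES1, a repressor induced by Notch signalling, went from 2.87-fold to 5.25-fold (chromosome 13, 131137561 to 131138090), 0.80 in the authors' deposited table (adjusted p = 0.000427), at 10.5, 12.7 and 7.76 FPKM in normoxia and 9.24, 9.41 and 9.77 in hypoxia (limma adjusted p = 0.777). THBS2, a matrix glycoprotein gene, had a 150-base peak in hypoxia alone (1.85-fold), 0.76 in the authors' deposited table (adjusted p = 0.00372), while its RNA was 21.4, 25.9 and 24.2 FPKM in normoxia and 11.8, 13.4 and 18.7 in hypoxia. The THBS2 difference of -0.69 (SE 0.195, limma adjusted p = 0.0387) was lost with scaling (limma adjusted p = 0.4) and without any library but hypoxia 3 (limma adjusted p = 0.0705 to 0.161).

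PFKFB3, which makes an activator of phosphofructokinase, had 2.73, 2.91 and 3.98 FPKM in normoxia and 28.2, 24.5 and 37.5 in hypoxia (a log2 difference of 2.88, SE 0.207, limma adjusted p = 0.000374). Its peak near the gene end grew from 61 to 270 bases (3.53-fold to 4.2-fold), 0.61 in the authors' deposited table (adjusted p = 0.0955). SOCS2, a brake on cytokine receptor signalling, rose from 2.43, 2.40 and 1.90 FPKM to 9.46, 8.03 and 5.41 (1.39, SE 0.219, limma adjusted p = 0.00494). The SOCS2 peak had the same ends in both lists, its enrichment was 9.52-fold in normoxia and 4.38-fold in hypoxia, and yet the authors' deposited table gives a positive 0.46 (adjusted p = 0.0741), so its direction depends on which table is read.

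The study's title concerns NMNAT3, an enzyme of NAD+ synthesis, and FTO. NMNAT3 RNA was 0.0936, 0.162 and 0.108 FPKM in normoxia and 5.97, 4.24 and 5.87 in hypoxia, without overlap. It met the FPKM minimum through the hypoxia libraries alone, which makes its filtered test no support. In the fit without that minimum NMNAT3 differed by 2.49 on the log2(FPKM + 1) scale (limma adjusted p = 0.00142). The added 1 makes this difference smaller at such low normoxia values. The authors' deposited expression comparison gives NMNAT3 a log2 difference of 5.47. Of the 2 hypoxia peaks of NMNAT3 the longer one, 836 bases, is the one with a differential entry (80431397 to 80431934). The entry stands at 1.30 in the authors' deposited table (adjusted p = 0.125).

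FTO and METTL3 had 0 3′ UTR peaks in either list. FTO had 18.0, 18.9 and 20.2 FPKM in normoxia and 12.3, 11.9 and 15.2 in hypoxia (-0.51, SE 0.152, limma adjusted p = 0.0457), a call lost with scaling (limma adjusted p = 0.603) and without any library but hypoxia 3 (limma adjusted p = 0.0949 to 0.174). METTL3 had 6.46, 6.08 and 6.78 FPKM and 5.07, 4.68 and 4.11 (-0.41, SE 0.151, limma adjusted p = 0.089). ALKBH5 had a single 61-base hypoxia peak of 1.80-fold (chromosome 12, 60509039 to 60509099), and its RNA rose from 9.43, 10.9 and 10.1 FPKM to 16, 16.2 and 18 (0.67, SE 0.139, limma adjusted p = 0.0125). The ALKBH5 call was lost without normoxia 1, 2 or 3 or hypoxia 1 (limma adjusted p = 0.0555 to 0.0642).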

How the data were processed

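The FPKM values of the 6 input libraries were made by the authors and are used as deposited. The log2 enrichments (IP over input), log2 differences, p-values and adjusted p-values of the peaks, and the q-values of the expression comparison, are the authors' deposited values. The submitters' processing notes name build Sscrofa11.1, HOMER 4.10, edgeR 4.1, StringTie 2.1.2, HISAT2 2.0.4, FastQC and fastp 0.19.4, without saying which made which file. No source used here names the program that called peaks or says if replicates were pooled. Sequencing depth is unknown, and no sequence is printed because no genome of the build was used here.

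Peaks annotated UTR3 were kept with pandas 2.3.3 (Python 3.11.15). Starts were moved by 1 base to count from 1. Sharing meant at least 1 base of overlap on the same strand. RNA was tested with limma 3.58.1 (R 4.3.3, trend and robust options) on log2(FPKM + 1) over genes with 1 FPKM or more in 3 or more of the 6 libraries, with Benjamini-Hochberg adjustment over 10196 genes. The model was tested on simulated data. Alternatives were other peak thresholds and overlaps, a median-ratio factor per library, a pseudocount of 0.1, no filter, the replicate number as a block, and each library left out.

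Genes were named by rule: the 8 differential 3′ UTR peaks in each direction with the smallest adjusted p, the 5 most abundant genes with a peak in each list alone, the 5 with the most peaks, list members with a differential peak, NMNAT3, FTO, ALKBH5 and METTL3, and the 5 highest enrichments of each list. The members and gene lists were chosen with earlier results of these data known. No column of values per sample was left out.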

Additional observations from a re-analysis of the deposited data

How the results depend on the processing

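At 4-fold enrichment or more, 6518 normoxia and 6727 hypoxia 3′ UTR peaks were left, and 73.5% of those of hypoxia were shared. With the authors' adjusted p under 0.05, 74.6% and 86.1% were shared, in genes of 1 FPKM or more in both conditions 75.6% and 88.0%, with 50% overlap of both spans 46.4% and 50.4%, and with a partner of any annotation 76.9% and 85.3%. In the authors' deposited table the adjusted p left 85 higher and 137 lower peaks and an absolute log2 difference of 1 left 36 and 34. Overlap of exon blocks was not run, as the tables give none.

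Median-ratio scaling lowered the lower-RNA counts to 469 (peak in both lists), 80 (normoxia alone), 21 (hypoxia alone), 10 (peak higher) and 61 (peak lower). Without the filter the hypoxia-alone genes had 122 with higher RNA. Leaving out 1 library gave 131 to 555 higher and 408 to 1775 lower genes for both lists, 13 to 102 and 53 to 278 for normoxia alone, and 12 to 41 and 19 to 78 for hypoxia alone. It gave 16 to 30 and 16 to 57 for genes with a higher peak, and 7 to 20 and 73 to 206 for those with a lower peak. Without a hypoxia library, the 26 hypoxia-alone genes that met the FPKM minimum through hypoxia libraries alone were no longer tested. What else moved the counts was not tested. A pseudocount of 0.1 left all 51 named genes on their side of the threshold, scaling lost 7 of their calls and added 1, and no alternative reversed a called direction.

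Whether the replicate numbers pair the libraries cannot be decided here, because deviations from a mean of 3 libraries depend on each other. Deviations of same-numbered libraries correlated at 0.586, 0.0398 and 0.697, and hypoxia 2 correlated best with normoxia 1 (0.641). With the replicate block 695 genes were higher and 2768 lower, against 551 and 2148, and the counts were 363 and 1512 for both lists, 36 and 262 for normoxia alone, 51 and 76 for hypoxia alone, 26 and 46 for a higher peak and 15 and 169 for a lower one. With the block DENND1A and STUB1 also passed (limma adjusted p = 0.0404 and 0.0365).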
